A study of Mus musculus with 6 samples.

Results

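The outer root sheath, the companion layer and stressed epidermis are marked by a small family of epithelial keratins, and 9 of their genes are described here: Krt5, Krt14, Krt15, Krt75, Krt79, Krt17, Krt16, Krt6a and Krt6b. They were taken by gene symbol, and 14 of the 45101 probe sets on the array carried the symbol of 1 of these genes alone. A further probe set carries the symbols of both Krt14 and Krt17 and was counted for neither. Of the 14 probe sets, 13, for 8 genes, passed the filter on dim signal and were tested, and the only Krt6b probe set did not pass it.

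Keratins are the intermediate filament proteins of epithelial cells. A filament forms from partners of opposite kind, an acidic type I chain (here Krt14, Krt15, Krt16 and Krt17) and a basic or neutral type II chain (here Krt5, Krt6a, Krt6b, Krt75 and Krt79). Krt5 and Krt14 form the network of basal keratinocytes, including those of the outer root sheath, and Krt15 is a type I keratin of the same basal cells and of the stem cell bulge. Krt75 marks the companion layer, the single cell layer between outer and inner root sheath, where Krt6a, Krt6b, Krt16 and Krt17 are also made in growing follicles. Krt6a, Krt6b, Krt16 and Krt17 are induced in wounded or hyperproliferating epidermis, and Krt79 marks the upper follicle and the duct of the sebaceous gland.

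The arrays were hybridised with total RNA from hair bulbs of mice at postnatal day 9. The emN1 bulbs (2 arrays) came from skin deleted for Notch1 in the embryo and have no functional Notch1. The anN1 bulbs (2 arrays) came from skin where deletion took place in anagen, the growth phase, and have functional Notch1, and 2 arrays were of wild-type bulbs. The design text treats anN1 and wild-type as controls, so that 2 emN1 arrays stand against 4 control arrays, and it places emN1 replicate 1 and anN1 replicate 1 in a first set of arrays and the other 4 in a later set. No label names the strain, what drove the deletion or how many animals stand behind an array. The sample titles call the replicates biological. With the number of animals unknown, p-values speak only of the spread among these 6 arrays.

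Notch1 itself, read by its brighter probe set, gave 6498 and 6292 signal units in emN1, 15077 and 12527 in anN1, and 23750 and 34070 in wild-type, lower in both emN1 arrays than in any control (log2 difference -1.55, SE 0.35; limma adjusted p = 0.0491). Signal over background was judged against 112, under which 95% of the values of bacterial control probes without target lay. All 6 hair matrix markers (Msx2, Lef1, Hoxc13, Foxn1, Dlx3 and Shh) were measured, and their summed signal was 53376 to 62359 in emN1, 52903 to 53118 in anN1 and 58995 to 59640 in wild-type. Among them Shh rose against the controls (log2 difference 0.41, SE 0.09; limma adjusted p = 0.0445), where 3.59% of all genes tested rose. The other 5 did not pass, with Lef1 at -0.48 (SE 0.14). The ratio of 5′ to 3′ signal of the actin control, a sign of RNA or labelling quality, was 0.177 and 0.218 in the first array set and 0.370 to 0.419 in the second. For the Gapdh control the sets overlapped, at 0.144 and 0.209 in the first and 0.184 to 0.215 in the second.

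Promoter sequence of the RefSeq annotation (build GRCm38.p6) was at hand for 4 of the 9 genes. It is shown for Krt5 and Krt75, type II genes of a single cluster on chromosome 15 that moved in opposite directions in emN1, as the 250 bases before the annotated start, on the minus strand of the genome and written 5′ to 3′. Capitals mark ATAAAA, an AT-rich run chosen after the sequences had been seen.
Krt5, chr15:101712906-101713155: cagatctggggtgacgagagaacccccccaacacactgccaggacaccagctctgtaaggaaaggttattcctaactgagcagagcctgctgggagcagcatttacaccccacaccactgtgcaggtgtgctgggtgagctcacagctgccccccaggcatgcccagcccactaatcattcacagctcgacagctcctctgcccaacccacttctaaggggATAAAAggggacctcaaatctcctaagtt
Krt75, chr15:101573905-101574154: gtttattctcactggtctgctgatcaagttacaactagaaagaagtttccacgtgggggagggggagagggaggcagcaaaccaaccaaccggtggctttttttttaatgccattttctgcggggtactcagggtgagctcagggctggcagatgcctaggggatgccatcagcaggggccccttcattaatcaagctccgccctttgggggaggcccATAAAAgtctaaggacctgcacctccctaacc

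The ATAAAA run begins 29 bases before the start of Krt5 and 32 before that of Krt75, and 17.0% of all 32851 promoter windows of this length hold it on either strand. Of 4 motifs searched on both strands, neither window holds TATAAA, the core promoter box, whose letters can overlap those of the marked run and which 12.4% of windows hold. Neither holds TGANTCA for AP-1 (6.75% of windows), TGGGAA for RBPJ, the nuclear partner of Notch (21.6%), or GCCNNNGGC for AP-2 (13.7%). The Krt79 window holds TGGGAA once, 144 bases before the start. The Krt14 window also holds it once, but the start annotated there lies 1480 bases inside the outer end of the gene. In the RefSeq gene order Krt75, Krt6b, Krt6a and Krt5 lie in 1 cluster, Krt6b next to Krt6a and Krt6a next to Krt5, while Krt14, Krt16 and Krt17 are direct neighbours in the type I cluster on chromosome 11.

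In emN1 bulbs the basal keratins Krt15, Krt14 and Krt5 rose. Of the measured keratins made both in the companion layer and in stressed epidermis, Krt16 and Krt6a rose and Krt17 fell. Krt75, the companion layer keratin paired here with Krt17, fell as well. Of the 8 genes measured, read by the brightest probe set of each, 5 rose, 2 fell and 1, Krt79, did not pass limma at a Benjamini-Hochberg adjusted p of 0.05. By probe set 6 of 13 rose, 2 fell and 5 did not pass, while over all 27022 probe sets tested 2.41% rose and 1.37% fell (3.77% in all). The emN1 and control arrays did not overlap for 7 of the 8 genes, 5 higher and 2 lower, as for 19.3% of all probe sets tested (9.99% higher, 9.33% lower). The median log2 difference of the 8 genes was 0.90, against -0.01 over all probe sets tested. Taken over the 12611 genes by their brightest probe sets, 3.59% rose and 1.84% fell. Each of the 13 probe sets also lay above the filter in the control arrays alone. The genes were picked with earlier results of these arrays known, so their counts are a description.

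**Figure D1:**
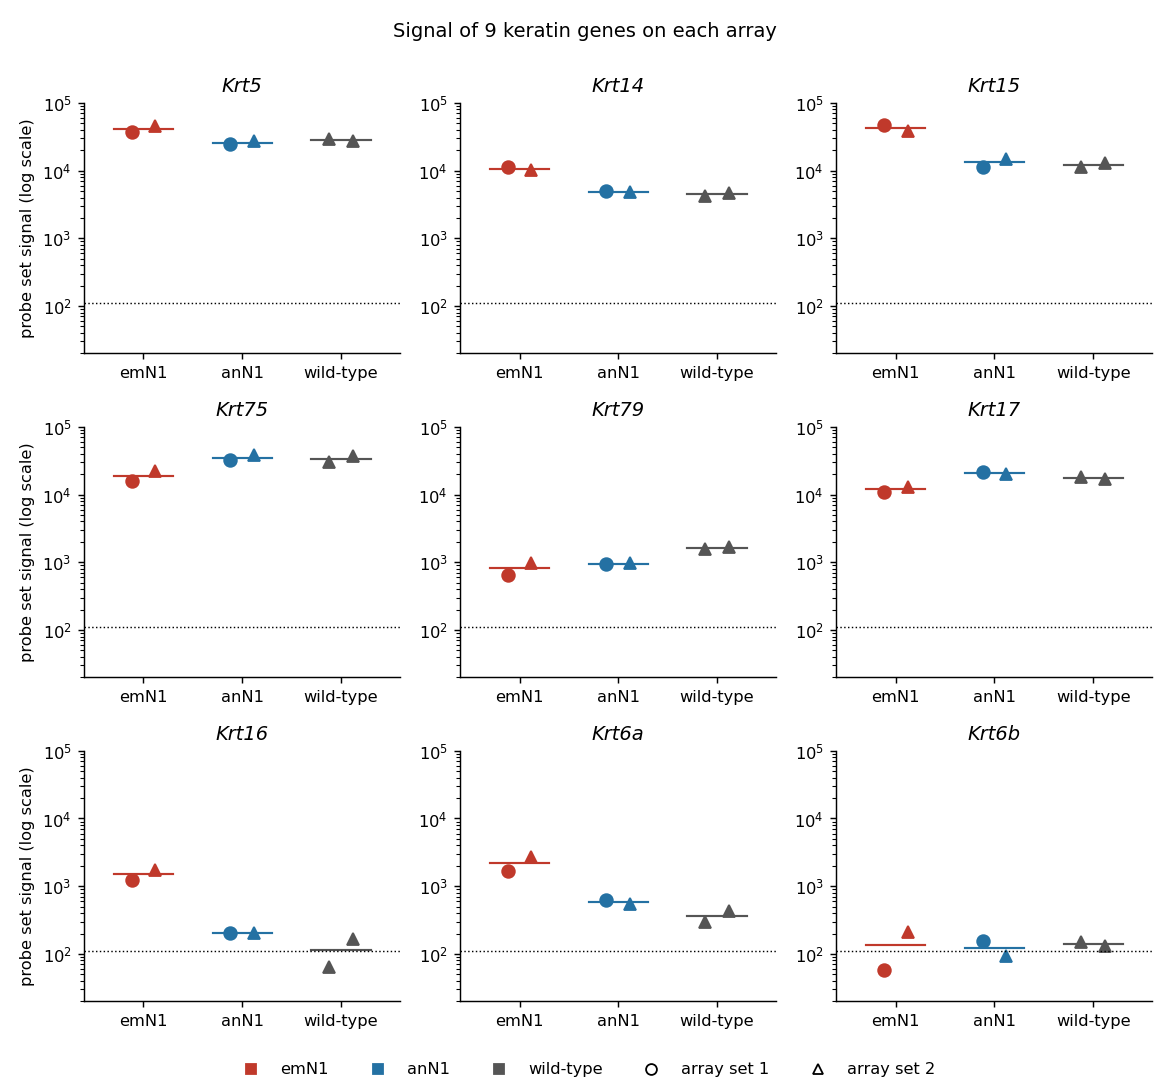
Signal of the 9 keratin genes on each array (log axis), by group, with circles for the first array set, triangles for the second, a line at the mean of each group and a dotted line at 112, the background limit. Both emN1 arrays lie above all 4 controls for Krt5, Krt14, Krt15, Krt16 and Krt6a and below all 4 for Krt75 and Krt17, for Krt79 emN1 overlaps anN1 and lies under wild-type, and for Krt6b all 3 groups overlap.

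Krt15 gave signals of 47214 and 38966 in emN1, 11444 and 15063 in anN1, and 11281 and 12800 in wild-type. Both emN1 arrays were far above every control, and anN1 and wild-type overlapped. The signal was 3.41-fold higher in emN1 (95% confidence interval 2.71 to 4.29; log2 difference 1.77, SE 0.15; 2 against 4 arrays), with a limma adjusted p of 0.00175. This was the smallest adjusted p among the 13 keratin probe sets.

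Krt14 had 3 probe sets. The brightest, 1423935_x_at, gave 11389 and 10033 in emN1, 4992 and 4760 in anN1, and 4233 and 4740 in wild-type, so that emN1 stood above all controls. It was 2.22-fold higher in emN1 (95% confidence interval 1.87 to 2.65; limma adjusted p = 0.00247). The second, 1460347_at, gave 7272 and 8025 in emN1 against 2071 and 3114 in anN1 and 3060 and 3371 in wild-type. It was 2.87-fold higher (95% confidence interval 2.29 to 3.60; limma adjusted p = 0.00224), again without overlap. The third, 1455573_at, was dim at 110 to 204, overlapped between emN1 and controls and did not pass (log2 difference 0.14, SE 0.45). The ending _x_at marks a set whose probes can match other transcripts, which matters in a family as alike as the type I keratins, whereas 1460347_at carries no such mark.

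Krt5, the type II partner of Krt14, gave signals of 37167 and 44856 in emN1, 24725 and 26955 in anN1, with 29252 and 27272 in wild-type. The rise was 1.57-fold (95% confidence interval 1.37 to 1.79; limma adjusted p = 0.00576), and the groups did not overlap. Against each control alone Krt5 differed by 0.66 from anN1 and by 0.63 from wild-type on the log2 scale (limma adjusted p = 0.0228 and 0.0365). These calls rest on the array set term: without it the limma adjusted p of Krt5 was 0.126 against all controls, 0.292 against anN1 and 0.356 against wild-type. With the replicate number as a block instead it was 0.133, 0.271 and 0.291.

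Krt75, the keratin of the companion layer, gave 15916 and 22085 in emN1, 31925 and 38424 in anN1, with 30621 and 36608 in wild-type. The higher emN1 array lay under the lowest control, and the control groups overlapped. Krt75 was 1.74-fold lower in emN1 (log2 difference -0.80, SE 0.12), with a limma adjusted p of 0.0115. Against anN1 alone it was lower as well (log2 -0.90, SE 0.12; limma adjusted p = 0.0159), and against wild-type alone, at -0.65 (SE 0.13), it did not pass (limma adjusted p = 0.0647).

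Krt17, a type I keratin made in the companion layer and outer sheath and in stressed epidermis, had 2 probe sets. The brighter gave 10903 and 13035 in emN1, 21751 and 20215 in anN1, and 18018 and 16704 in wild-type. Both emN1 arrays lay under all controls, and both anN1 arrays lay above both wild-type arrays. The emN1 signal was 1.61-fold lower (log2 difference -0.69, SE 0.14; limma adjusted p = 0.0300). It was lower than anN1 by -0.81 (SE 0.12; limma adjusted p = 0.0237), whereas the difference of -0.50 (SE 0.14) from wild-type did not pass (limma adjusted p = 0.150). The dim second probe set, with signals of 139 and 169 in emN1 and 179 to 370 in the controls, gave -0.67 (SE 0.40) and did not pass. Of the 7 genes called between emN1 and controls, Krt17 held its call in the fewest of the 15 alternative settings tried, 6. Those that ended it included taking the mean of both probe sets and leaving out any of 5 arrays, wild-type replicate 2 being the exception. Leaving out emN1 replicate 1 or anN1 replicate 1 gave the same difference (-0.49), so these are not separate checks.

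Krt16, a type I keratin of stressed epidermis and the companion layer, had the largest difference estimated among the 8 genes. Its signals were 1217 and 1763 in emN1, 206 on both anN1 arrays, and 63.3 and 168 in wild-type. The emN1 arrays stood far above all controls, and wild-type replicate 1 was under the background limit. The log2 difference was 3.13 (SE 0.48; 95% confidence interval 2.03 to 4.22; limma adjusted p = 0.0116), which is 8.73-fold. With all signals raised to the background limit it was 2.99. Against anN1 alone it rose by 2.73 (SE 0.48; limma adjusted p = 0.0390) and against wild-type alone by 3.73 (SE 0.53; limma adjusted p = 0.0183).

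Krt6a, the type II partner of Krt16, gave 1689 and 2706 in emN1, 621 and 554 in anN1, and 298 and 435 in wild-type with its brightest probe set, 1422784_at. No emN1 array overlapped a control. The rise was 4.46-fold (95% confidence interval 2.59 to 7.69; log2 difference 2.16, SE 0.34; limma adjusted p = 0.0129). A second set, 1422783_a_at, gave 421 and 1033 in emN1 against 183 to 388 in the controls, without overlap, and a difference of 1.45 (SE 0.34) that did not pass (limma adjusted p = 0.0584). The third, 1427700_x_at, gave 245 and 584 in emN1 against 112 to 340 in the controls, with overlap, and differed by 1.33 (SE 0.48; limma adjusted p = 0.206).

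Krt6b, a close copy of Krt6a beside it in the cluster, was at or near background. Its probe set gave 58.4 and 208 in emN1, 153 and 92.1 in anN1, and 149 and 129 in wild-type. Arrays of every group overlapped, and 2 of the 6 lay under 112. With the filter lifted, the difference between emN1 and controls was -0.05 (SE 0.58; 95% confidence interval -1.35 to 1.26), for a signal so near background that no change could be read from it. Signals of these 2 genes from short probes are uncertain, since their transcripts are much alike.

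Krt79, of the upper follicle and sebaceous duct, was the gene that did not pass. It gave 654 and 969 in emN1, 926 and 970 in anN1, with 1555 and 1660 in wild-type. The emN1 and anN1 arrays overlapped, and all 4 lay under both wild-type arrays. Its difference from the controls was -0.48 (SE 0.25; 95% confidence interval -1.06 to 0.09; limma adjusted p = 0.394), and from wild-type alone -0.84 (SE 0.26; limma adjusted p = 0.196).

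**Figure D2:**
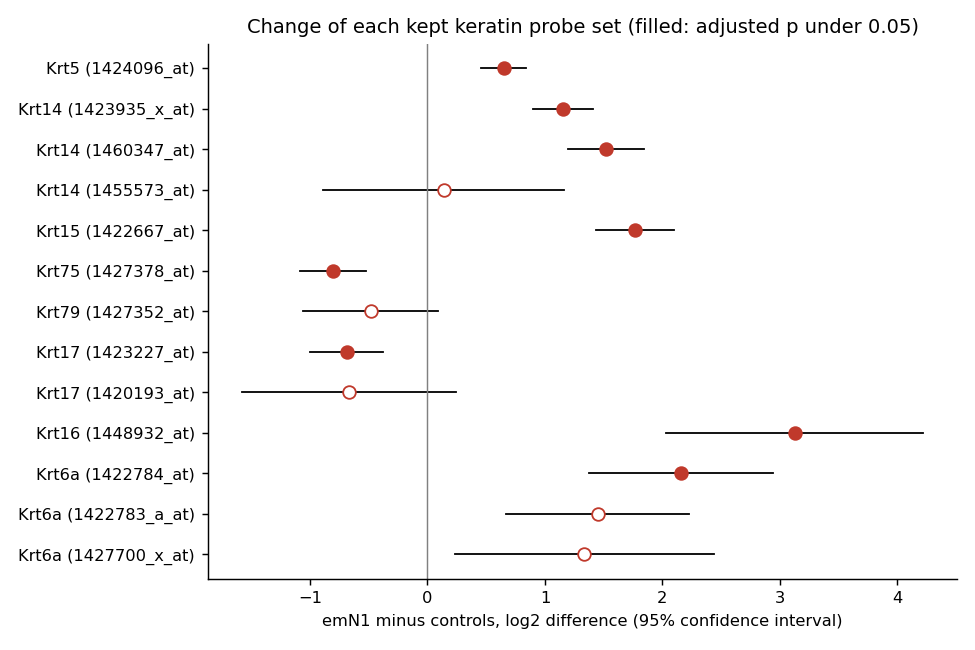
Log2 difference between emN1 and the 4 control arrays for each of the 13 keratin probe sets tested, with its 95% confidence interval; filled points passed the adjusted p of 0.05. The 6 filled points above 0 are Krt5, 2 Krt14 sets, Krt15, Krt16 and 1 Krt6a set, and the 2 below 0 are Krt75 and the brighter Krt17 set.

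The comparisons with each kind of control share the emN1 arrays and are given side by side. Against anN1, 5 genes rose, 2 fell and 1 did not pass, where 2.02% of all probe sets tested passed (1.35% higher, 0.662% lower). The arrays of these groups did not overlap for 5 genes that were higher and 2 that were lower, as for 31.4% of all probe sets (15.4% higher, 16.1% lower). Of the 7 calls against anN1, Krt15 alone kept its call without the array set term, and again with the replicate number as a block. When any of the 4 emN1 and anN1 arrays was left out, 0 of the 8 genes passed limma, while 7 had an unadjusted p under 0.05 each time. Against wild-type, 5 rose, none fell and 3 did not pass, where 2.16% passed (1.53% higher, 0.629% lower). All 8 had an unadjusted limma p under 0.05, as did 3559 of all 27022 probe sets tested. For all 8 the arrays did not overlap, 5 higher and 3 lower, as for 42.2% of all probe sets (19.7% higher, 22.6% lower). Krt15 rose by 1.71 against anN1 and 1.86 against wild-type on the log2 scale, Krt14 by 1.13 and 1.19, and Krt6a by 1.83 and 2.64 (limma adjusted p from 0.00515 to 0.0374).

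Between anN1 and wild-type, 0 of the 8 genes passed limma, where 0.074% of all probe sets passed (0.0518% higher, 0.0222% lower). An unadjusted limma p under 0.05 was found for 0 of the 8 (1 of the 13 probe sets, 1427700_x_at of Krt6a), against 984 of all 27022 probe sets tested. The arrays of anN1 and wild-type did not overlap for 6 of the 8 genes, 4 of them higher and 2 lower in anN1, as for 32.7% of all probe sets tested (16.5% higher, 16.2% lower). The differences were 1.00 for Krt16 (95% confidence interval -0.25 to 2.25) and 0.81 for Krt6a (-0.02 to 1.63). These intervals do not show that the controls are alike: for Krt16 and Krt6a each anN1 array lay above each wild-type array. For Krt5 and Krt14 the intervals were narrow, from -0.29 to 0.23 and from -0.28 to 0.39.

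Within the array sets the direction of each gene recurred. Krt15 was higher in emN1 than anN1 by 2.04 in the first set and by 1.37 in the second, where it was 1.70 above wild-type. Krt75 was lower by 1.00 in the first set and by 0.80 in the second on the log2 scale, and 0.60 under wild-type. In all 8 genes the 3 within-set differences had the same sign, which held for 47.2% of all probe sets tested. Krt79 belongs to these by a narrow margin, as its second-set value against anN1 was -0.0016. Both second-set differences use the same emN1 array, so the 3 are not independent. Krt16 and Krt6a rose more in the second set (2.99 and 2.25 against anN1) than in the first (2.46 and 1.42), a difference for which there was no replicate.

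**Figure D3:**
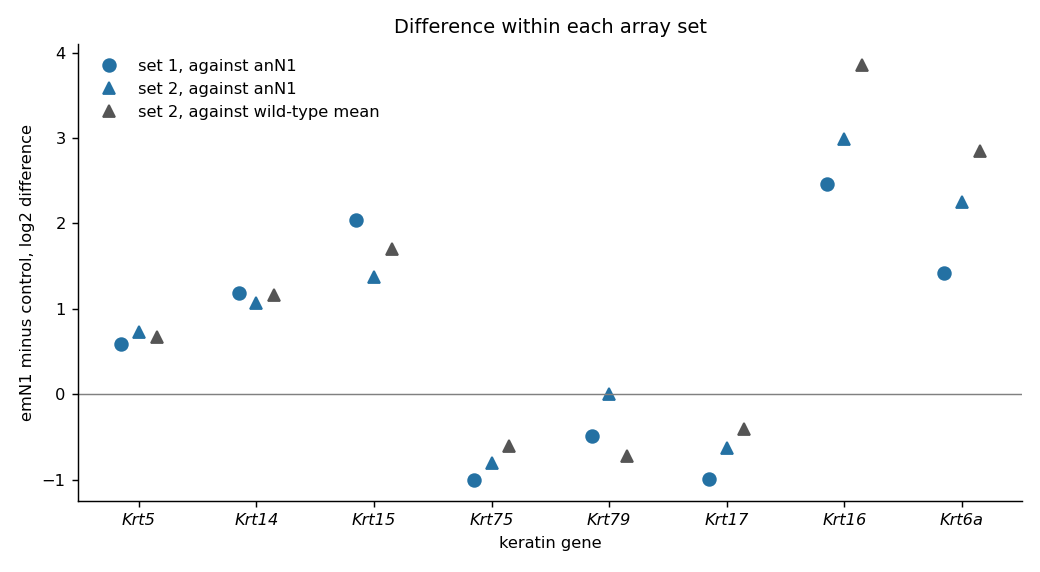
Log2 difference between the emN1 array and its controls within each array set, for the brightest probe set of 8 genes; blue points are against the anN1 array of the set (circle, first set; triangle, second set) and grey points against the mean of 2 wild-type arrays. All points of Krt5, Krt14, Krt15, Krt16 and Krt6a lie above 0 and all of Krt75 and Krt17 below it.

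How far partners moved together was read from the log2 ratio of a type II over a type I keratin within an array, in which the scaling of the array largely cancels. The level of such a ratio depends on the probes, so only its difference between arrays is read. The ratio of Krt5 over Krt14 was 1.70 and 2.16 in emN1, 2.30 and 2.50 in anN1, and 2.78 and 2.52 in wild-type, lower in both emN1 arrays than in any control. The ratio of Krt6a over Krt16 was 0.47 and 0.61 in emN1, 1.51 and 1.35 in anN1, and 1.96 and 1.28 in wild-type, again without overlap, though the wild-type value of 1.96 rests on Krt16 at 63.3, under the background limit.

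The Krt5 over Krt14 ratio differed by -0.59 between emN1 and controls and that of Krt6a over Krt16 by -0.99. In a two-sided exact permutation test over the 15 ways to choose 2 of 6 arrays, each gave p = 0.0667, the smallest this design allows (0.10 after Benjamini-Hochberg adjustment over 3 ratios), so neither could pass. The permutations did not keep to the array sets. Without wild-type replicate 1, the array with the dim Krt16, the Krt6a over Krt16 difference was -0.84. Averaged over every probe set of each gene, the Krt5 over Krt14 difference was -0.33 and that of Krt6a over Krt16 was -1.65. The third ratio, Krt75 over Krt17, differed by -0.19, with emN1 and control arrays overlapping (exact permutation p = 0.333).

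**Figure D4:**
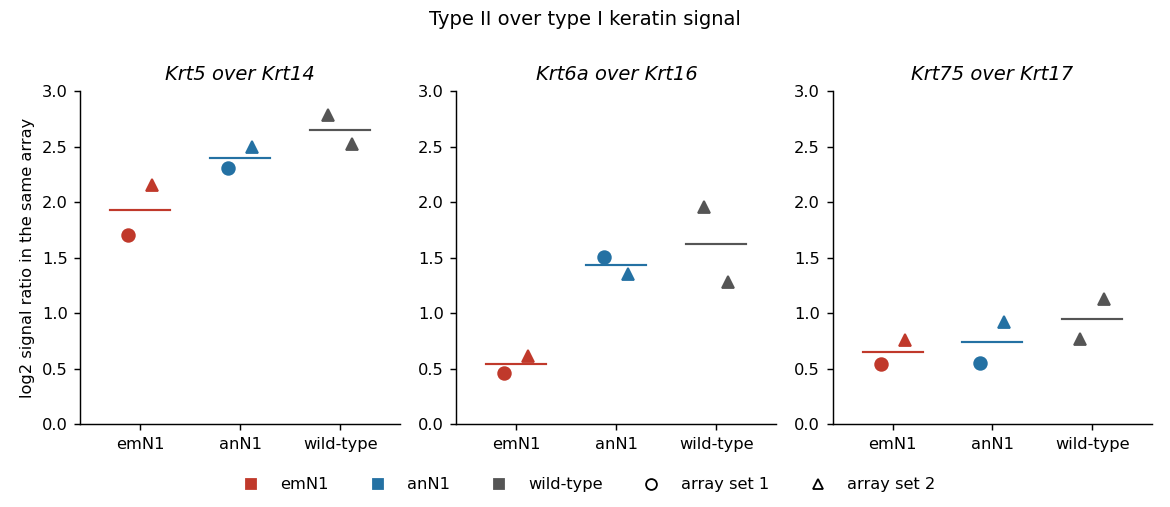
Log2 ratio of the signals of a type II keratin and its type I partner on each array, with circles for the first array set, triangles for the second and a line at the mean of each group. Both emN1 arrays lie under all 4 controls for Krt5 over Krt14 and for Krt6a over Krt16, and they overlap the controls for Krt75 over Krt17.

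Among 18 other epithelial keratins 7 were measured, of which 2 rose, none fell and 5 did not pass (median log2 difference 0.26, against -0.02 over all 12611 genes tested, of which 3.59% rose and 1.84% fell). Against anN1 1 rose and against wild-type 2. Krt80, a type II keratin of differentiating epithelia, rose by 2.28 (SE 0.30; limma adjusted p = 0.00650), from 400 to 665 in the controls to 2069 and 3226 in emN1. The type I keratin Krt23 rose by 0.85 (SE 0.17; limma adjusted p = 0.0337). Krt10, the suprabasal keratin of epidermis, gave 2955 and 2596 in emN1 and 2255 to 3118 in the controls, a difference of -0.01 (SE 0.16). Its partner Krt1 lay under the filter on dim signal, and both were named after their values were seen.

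Among 27 basal and outer sheath genes other than keratins 24 were measured, of which 8 rose, 1 fell and 15 did not pass (median 0.61), where 3.59% of all genes rose and 1.84% fell. Against anN1 4 rose and 1 fell, where 2.13% of all genes rose and 0.896% fell, and against wild-type 2 rose and none fell, where 2.36% rose and 0.872% fell. Postn, for the matrix protein periostin, rose by 1.75 (SE 0.29). Dst, whose skin form ties keratin filaments to the hemidesmosome, and Lamb3, a laminin chain of the basement membrane beneath it, rose by 1.65 each (SE 0.19 and 0.23). Col17a1, the transmembrane collagen of the hemidesmosome, rose by 1.14 (SE 0.18; limma adjusted p from 0.00386 to 0.0155 for these 4). Gjb6, a connexin of keratinocytes, fell by 0.61 (SE 0.12; limma adjusted p = 0.0315). Trp63, the transcription factor that maintains basal keratinocytes, differed by 0.14 (SE 0.08), did not pass, and was likewise named after its values were seen.

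Among 29 genes of the epidermal stress response other than keratins 17 were measured, of which 3 rose, none fell and 14 did not pass (median 0.59), where 3.59% of all genes rose. Against anN1 3 rose (2.13% of all genes) and against wild-type 6 (2.36%). The 3 were Tgfa and Ereg, ligands of the epidermal growth factor receptor, up by 1.72 (SE 0.22) and 1.55 (SE 0.19), and Sprr1a, a precursor of the cornified envelope, up by 0.72 (SE 0.10; limma adjusted p from 0.00537 to 0.00958 for these 3). S100a8, a calcium-binding protein often raised with Krt6 and Krt16, gave 2510 and 3062 in emN1, 3989 and 2262 in anN1, and 724 and 875 in wild-type. It did not pass against the controls (log2 difference 0.59, SE 0.54) or anN1 (-0.12, SE 0.27), rose against wild-type (1.64, SE 0.31; limma adjusted p = 0.0458), and was named after its values were seen.

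**Figure D5:**
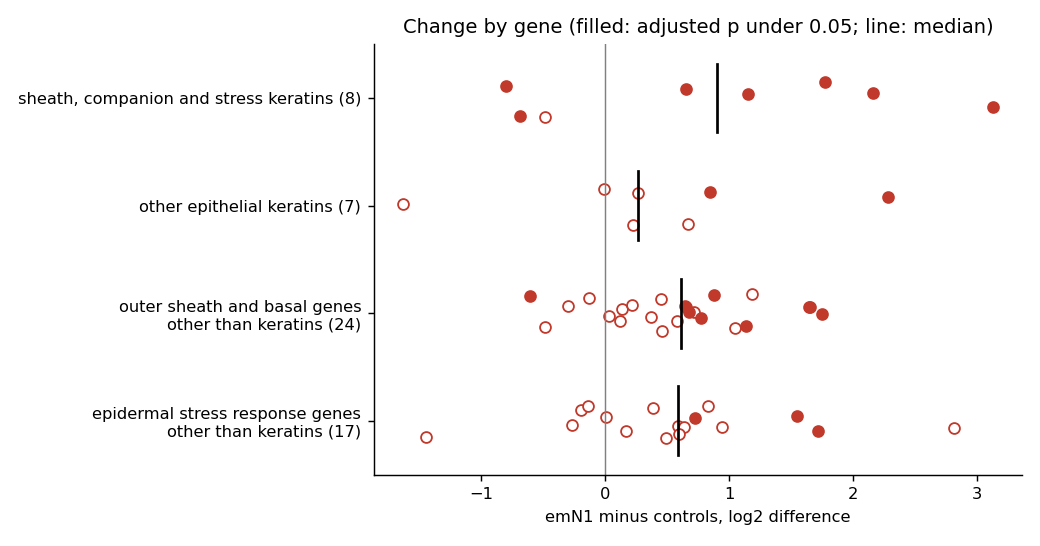
Log2 difference between emN1 and controls for 8 of the 9 keratins and for 3 other gene lists, 1 point a gene (brightest probe set), filled where the adjusted p was under 0.05; black lines are medians, at 0.90, 0.26, 0.61 and 0.59 from top to bottom. The vertical position of points within a row has no meaning.

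The genes with the most similar course over the 6 arrays were found by the root mean square difference between centred log2 signals. Nearest to Krt5 were Arhgef26, Agrn and Nid1 (0.059, 0.067 and 0.075), of which Agrn and Nid1 encode basement membrane proteins. Nearest to Krt14 were Cav1, Auts2 and 9530036O11Rik (0.069 to 0.102), and nearest to Krt15 Fxyd5, Tnxb and F5 (0.112 to 0.152). Krt6a was closest to Slc5a8 (0.156), the keratin Krt80 (0.205) and Slco2a1 (0.227). Krt16, with the widest span, had Calm4 (0.396), Slc5a8 (0.430) and Npl (0.449) nearest. Krt75 was closest to Asphd2, Gm14321 and Thsd7a (0.089 for the first), Krt17 to Tirap, Dsn1 and Pim2 (0.061 to 0.075) and Krt79 to Dhx36, Ptn and Zik1 (0.103 to 0.127). These are the nearest of 12611 genes over 6 arrays, and no test was made of them.

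Markers of several other cell types moved with the groups, and their part in the keratin differences was not tested. In bulk RNA, moreover, a change in the number of cells of a type and a change of RNA per cell cannot be told apart. The counts below stand against 3.59% of all genes that rose and 1.84% that fell. Of 8 suprabasal epidermis markers 5 were measured and 1 rose, Calm4 (log2 3.25, SE 0.31), with 39464 and 25297 in emN1 against 1848 to 4637 in the controls. The others did not pass. Lor, a cornified envelope protein, differed by -1.15 (SE 0.26; limma adjusted p = 0.0501), and by -1.54 (SE 0.25; limma adjusted p = 0.0289) from wild-type alone. Ivl differed by 1.12 (SE 0.43; limma adjusted p = 0.238), with both emN1 arrays above every control. Against wild-type alone Ivl rose by 2.00 (SE 0.20; limma adjusted p = 0.00515). Krt10 and Dsg1a differed by -0.01 and 0.07. All but Calm4 were named after their values were seen. The summed signal of the 5, most of whose gain was in Calm4, was 56688 to 60704 in emN1, 23755 to 31485 in anN1 and 28093 to 29243 in wild-type, with Krt1, Krt2 and Flg under the filter. Of 7 sebaceous gland markers measured, with Krt79 among them, 2 rose, with Elovl3 foremost (log2 2.68, SE 0.46), 1 fell, Mgst1 (by 0.84, SE 0.11), and 4 did not pass. That list summed to 60767 to 64814 in emN1, 69917 to 81682 in anN1 and 80216 to 80910 in wild-type.

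All 7 fibroblast markers were measured and 4 rose, with a summed signal of 95324 to 113596 in emN1, 62344 to 67669 in anN1 and 61017 to 81081 in wild-type. Of the 6 immune markers 2 rose, and their sum was 4620 and 4621 in emN1, 1023 to 1136 in anN1 and 1063 to 1130 in wild-type. Of the 5 hair shaft cortex markers measured 3 rose (summed signal 164655 to 165719 in emN1, 96619 to 132018 in anN1, 70638 to 77171 in wild-type). Krt81 was among the 3 that rose (log2 4.59, SE 0.49), and Krt31 did not pass (1.03, SE 0.62; limma adjusted p = 0.473). Both Krt31 (log2 2.21, SE 0.11; limma adjusted p = 0.00126) and Krt81 (1.70, SE 0.18; limma adjusted p = 0.0327) were higher in anN1 than in wild-type. All 6 melanocyte markers fell (87268 to 103608 in emN1, 246055 to 288911 in anN1, 200080 to 217699 in wild-type). Of the 6 dermal papilla markers, all measured, 2 rose, 1 fell and 3 did not pass. Among them Sox18 rose by 1.54 (SE 0.33; limma adjusted p = 0.0421) and Crabp1 differed by -1.97 (SE 0.20; limma adjusted p = 0.00308). Of the 8 inner root sheath markers, the layer next to the companion layer, Krt72 rose and 7 did not pass. Of endothelium and muscle 1 marker each was measured, neither of which passed, and of adipocytes 2, which did not pass either.

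The calls rest on few arrays. Leaving out either emN1 array, or anN1 replicate 1, leaves 1 emN1 array to bear on the difference from the controls. Such a fit gives little ground for a call. Without emN1 replicate 2 Krt15 differed by 2.04 and Krt16 by 2.46 (log2). Without emN1 replicate 1 these differences were 1.59 and 3.57. They were the same without anN1 replicate 1, since the array set term takes up the array left alone in the first set. With limma's variance not allowed to follow signal intensity, 0 of the 8 passed (7 had an unadjusted p under 0.05), and 0 of all 27022 probe sets did (4044 had an unadjusted p under 0.05). The direction of all 8 genes was the same in each of the 15 alternatives for the differences from all controls, from anN1 alone and from wild-type alone.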

How the data were processed

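Total RNA of 6 hair bulb samples was hybridised to 1-colour arrays. The deposited values are linear signal intensities, made by the authors with MAS5 per the submitters' processing notes, and the version of other steps is not given in the sources used here. Probe sets with 1 gene symbol in the platform annotation were assigned to that gene, and a gene was read by its brightest probe set. Control probe sets were left out. To each intensity 17.8, the 10th percentile, was added before log2, so fold changes of dim genes are understated, and the upper 60% of probe sets by mean (27022) were kept. limma 3.58.1 in R 4.3.3 was fitted over these with the array set as a term and an intensity trend, for emN1 against 4 controls and for the 3 groups, with Benjamini-Hochberg adjustment and a threshold of 0.05; the script was tested on simulated data. Partner ratios had an exact permutation test, and the planned ratio of Krt6b over Krt16 was not run because Krt6b was too dim. The array set in the design text pairs emN1 and anN1 replicates by number (deviations correlated at 0.38), but not wild-type (-0.19 and -0.02). The keratins, gene lists and markers were chosen with earlier results of these data known. Named were all 9 keratins, up to 4 passing genes a direction from each of 3 other lists by size of change, up to 2 passing genes from each marker list, and the 3 nearest genes by course over the arrays. Precision is limited by the number of arrays. Pseudocount, filter, scaling, trend, block, probe set rule and left-out arrays were varied.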

Additional observations from a re-analysis of the deposited data

Results flagged for a closer look

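The dimmest Krt14 probe set, 1455573_at, moved in opposite directions in the array sets: emN1 minus anN1 was -0.48 in the first set and 0.10 in the second (log2), a difference that was not tested. The Krt6b probe set did the same near background, with -1.16 in the first set and 1.04 in the second, also not tested. Among the 4 control arrays of the Krt6a probe set 1427700_x_at, anN1 replicate 2 stood apart at 340, against 112 to 150 in the others, and chance alone sets apart about 1 in 20 such groups.

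A control probe set for the Cre recombinase, outside the comparisons made here, gave 434 and 409 in emN1, 395 and 515 in anN1, and 62.4 and 79.0 in wild-type, so that both deleted groups were above background and wild-type was under it.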

How the results depend on the processing

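Of the 8 keratins, 7 passed between emN1 and controls, 7 between emN1 and anN1 and 5 between emN1 and wild-type. Without the intensity trend these counts were 0, 0 and 0. Without the array set term they were 4, 1 and 4. With the replicate number as a block in place of the array set they were 5, 1 and 4. Leaving out each array in turn gave 0 to 7, 0 to 7 and 0 to 6. For anN1 and wild-type 0 passed in every alternative run. No difference between emN1 and its controls changed direction in the 15 alternatives. Between anN1 and wild-type, where nothing passed, Krt5 turned from -0.03 to 0.0071 with quantile normalization. With an array left out Krt5 ranged from -0.081 to 0.079, above 0 without anN1 replicate 2 or wild-type replicate 1. Krt14 (0.06) ranged from -0.027 to 0.14, under 0 without those same arrays, and Krt15 (0.16) from -0.35 to 0.33, under 0 without anN1 replicate 2. The cause of these changes was not tested. Over all probe sets, 1020 passed between emN1 and controls, 286 without the set term, 288 with the replicate block and 1 to 1092 with an array left out. For emN1 and anN1 these counts were 545, 42, 73 and 0 to 1269, and for emN1 and wild-type 584, 215, 262 and 0 to 1375. For anN1 and wild-type 20 passed, 0 without the trend, 32 with mean probe sets and 0 to 173 with an array left out. The partner ratios kept their direction. Signal near background limits Krt6b, Krt16 in wild-type and the dim probe sets of Krt14 and Krt17.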
